A study of Saccharomyces cerevisiae with 13 samples.

Results

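Budding yeast released from a G1 arrest passed through G2, mitosis and division on 2 occasions within the sampled course, and the level of every gene was compared between these passages. The second passage is the arrays labelled 100, 110 and 120 min after release, and the first passage is the arrays labelled 40, 50 and 60 min. Members were chosen by these time labels alone, which gave 6 of the 13 arrays of the series, and each array was paired with the one 60 min away. All 6 samples are W303 cells with an SSD1-V background, arrested with the mating pheromone alpha factor and released into rich YEPD medium, and they come from 1 synchronised course. SSD1 encodes an RNA-binding protein. Each sample, in Cy5, was hybridised against the same kind of reference in Cy3, an asynchronous W303a culture grown in the same medium. Which SSD1 allele the reference culture carried is unknown here. The 6 arrays of 70 to 90 min and 10 to 30 min, from the same course, were used for 1 further comparison. They also entered the estimate of autocorrelation between pairs, and the 30 min array entered 1 interpolation. The 0 min array gave the direction of the ratios. Checks that rescaled the arrays used all 13.

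Transcription in the yeast cell cycle runs as a chain of waves. In late G1 the factors SBF and MBF switch on the G1 cyclins and the DNA replication genes, the histones follow in S phase, and the forkhead factors with Mcm1 and Ndd1 then switch on the CLB2 cluster, whose products drive the spindle, mitotic exit and septum formation. At the end of mitosis a further wave switches on genes of early G1 and of the daughter cell, among them the enzymes that cut the septum.

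A level is the authors' log ratio for 1 gene on 1 array, read here as log2 with the Cy5 sample over the Cy3 reference. The authors state neither base nor orientation, and sizes hold only if the base is 2. The orientation follows from the values: in the arrested cells at 0 min the median of 24 genes of the pheromone response was 2.16, with 3.40 for the mating gene FUS1, which reference over sample would reverse. A difference is the level in the second passage minus that in the first on the log2 scale, averaged over the 3 pairs, and its error is the standard error (SE) of limma's paired fit with n = 3 pairs. There is 1 array per time point and no biological replicate, so the p-values measure the spread between pairs within 1 culture. Between 6178 and 6185 rows were measured on these 6 arrays, and the medians lay between -0.01 and 0.01. The standard deviation over rows was 0.24, 0.26 and 0.26 at 100, 110 and 120 min, against 0.31, 0.29 and 0.28 at 40, 50 and 60 min.

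The passages were broadly alike. Across genes, Pearson's r was 0.78 between the 100 and 40 min arrays, 0.80 between 110 and 50 min and 0.79 between 120 and 60 min. Arrays at unlike positions were less alike, down to 0.45 for 120 and 40 min, and the 110 min array was closer to 40 min (0.74) than to 60 min (0.68). These values describe genes of the same arrays, which share a reference. The spread over genes of a pair difference was 0.20, 0.17 and 0.18 for the pairs in time order, against 0.22 to 0.27 for the 3 pairs of the earlier part of the cycle. In cultured cells measured in bulk, fewer cells at a stage and less RNA per cell cannot be told apart.

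CTS1 and DSE2 of cell separation, the cell wall gene CWP1 and the carbonic anhydrase gene NCE103 had the largest rises in the second passage, and FIT1 of iron uptake was among the largest falls. At an adjusted p under 0.05, limma called 144 of 6134 genes, which is 2.35%. Of these, 93 were higher (1.52%) and 51 lower (0.831%), with median differences of 0.44 and -0.38, and all 144 moved the same way in all 3 pairs. Among the called genes 3, CTS1, DSE2 and CWP1, reached a difference of 1, that is 2-fold. The calls rest on all 3 pairs taken as independent: limma called 0 genes without any 1 pair (743 to 1261 at an unadjusted p under 0.05), 0 without the pairing (913 unadjusted) and 0 when neighbouring pairs were given the autocorrelation of 0.79 estimated from the data (48 unadjusted, adjusted p = 1 for every gene). All 144 kept their direction, which these settings could not change, since each gene had one sign in all 3 pairs. Scaling the arrays to one spread called 176 higher and 157 lower genes, and pairing arrays 63 min apart called 417 higher and 454 lower.

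**Figure D1:**
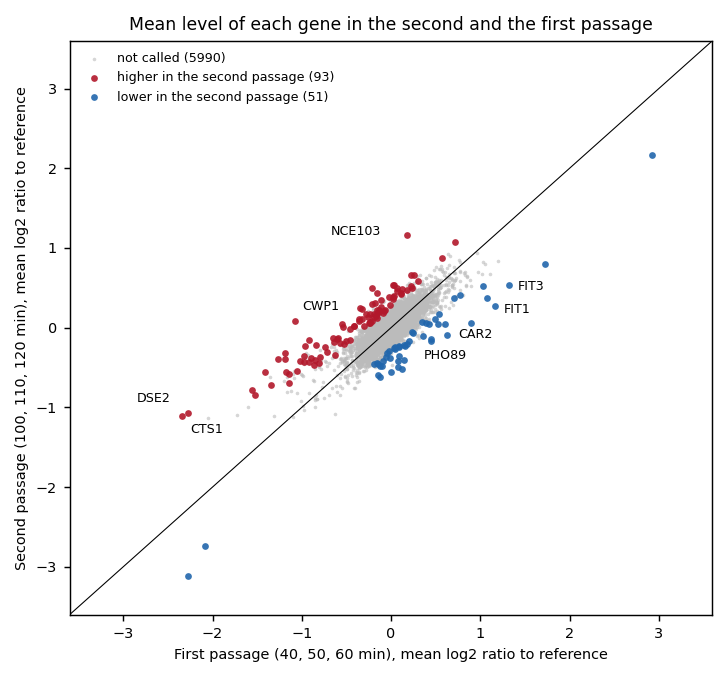
Mean log2 ratio of each gene over the second passage (vertical axis) and over the first (horizontal axis), with 6134 genes as points, the 93 genes called higher in red, the 51 called lower in blue and the line of equal level. Most red points lie at negative levels in the first passage, and CTS1 and DSE2 are among the lowest of them.

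A size rule without a test gave a smaller set. All 3 pairs agreed in sign with a mean difference of at least 0.5 for 43 genes above and 19 genes below, or 0.702% and 0.31% of 6124 genes. The number above was 65 without the 120 and 60 min pair. A permutation of signs over 3 pairs cannot give a two-sided p below 0.25, so no single gene can be tested that way.

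The largest rises were in genes that the daughter cell switches on to separate from its mother. CTS1 (YLR286C), the chitinase that digests the septum, stood at -0.83, -1.32 and -1.19 at 100, 110 and 120 min, against -2.39, -2.56 and -2.09 at 40, 50 and 60 min. All levels of the second passage were above all of the first, by 1.23 ± 0.12 (SE), or 2.35-fold (adjusted p = 0.0087, limma). Quantile normalization of the arrays left 0.64 for CTS1 (adjusted p = 0.070). DSE2 (YHR143W), a secreted protein of daughter cells involved in cell separation, stood at -0.73, -1.18 and -1.29 in the second passage and at -2.18, -2.31 and -2.35 in the first. Its groups did not overlap either, and the difference was 1.21 ± 0.08 (adjusted p = 0.0030, limma). The genes were thus still below the asynchronous culture in both passages, less so in the second.

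Of 22 measured daughter cell and early G1 genes, 5 rose, 0 fell and 17 were not called. Of the 22 differences 21 were above 0, with a median of 0.35 against -0.003 over all genes tested. For this and every list below, the shares over all genes were 1.52% called higher and 0.831% called lower. Of all 6134 genes, 2997 were above 0 and 3137 below. The others that rose were DSE1 (0.68 ± 0.08), whose product acts at the daughter cell wall, BUD9 (0.45 ± 0.08), a landmark of bud site choice, and HO (0.77 ± 0.12), the endonuclease of mating type switching. EGT2 (YNL327W), a cell wall gene of cell separation, stood at -1.52, -1.81 and -0.07 in the second passage and at -3.05, -2.87 and -0.23 in the first. Its groups overlapped through the last array of each, and its difference of 0.92 ± 0.23 was not called (adjusted p = 0.076, limma). SIC1, the inhibitor of S phase cyclin kinase, had 0.27 and 0.45 for the earlier pairs and -0.44 for 120 against 60 min, and a mean of 0.09 ± 0.16. Over the list the median pair difference was likewise smallest in the last pair, with 0.60, 0.45 and 0.01 for the pairs in time order. Its median difference was 0.03 with quantile normalization, 0.22 without the 110 and 50 min pair and 0.54 without the 120 and 60 min pair.

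**Figure D2:**
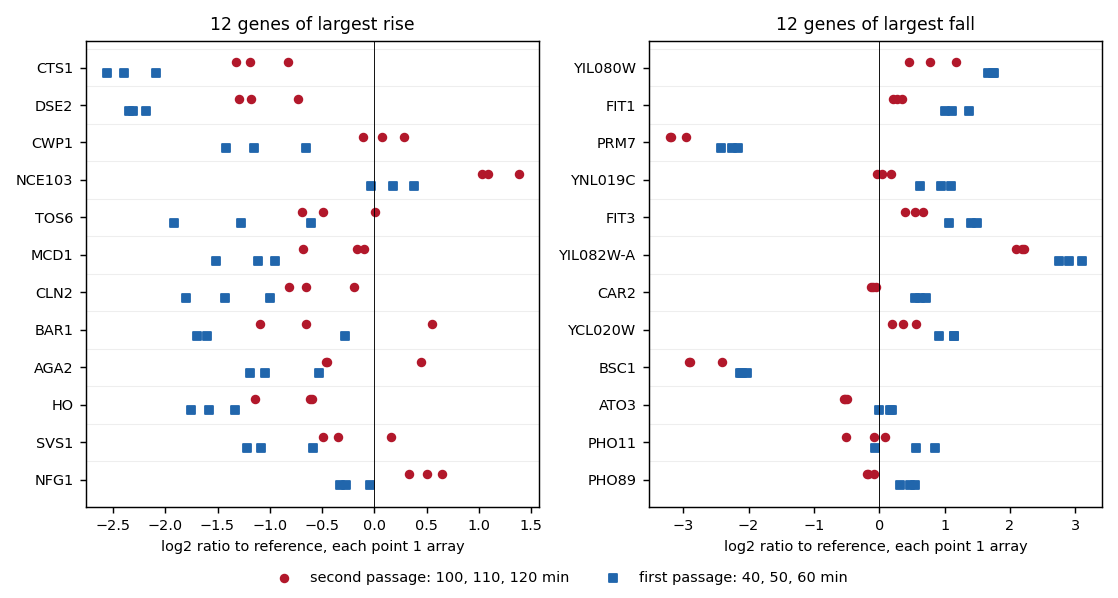
Log2 ratio to the reference on each array of the second passage (red circles) and the first (blue squares) for the 12 genes of largest rise, left, and of largest fall, right. In 10 of the 12 rising genes and 11 of the 12 falling genes the passages do not overlap, the exceptions being TOS6, BAR1 and PHO11. The genes were picked for their differences between these same arrays, which favours separation. Over all genes, 8.7% lay wholly above and 12.4% wholly below.

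Most late G1 genes, whose wave comes before G2 and mitosis, were less far below the reference in the second passage. CLN2 (YPL256C), a G1 cyclin, stood at -0.19, -0.82 and -0.65 at 100, 110 and 120 min, against -1.0, -1.80 and -1.43 at 40, 50 and 60 min. The passages did not overlap, and the difference was 0.86 ± 0.06 (adjusted p = 0.0030, limma). MCD1 (YDL003W), the cleavable subunit of cohesin, stood at -0.17, -0.68 and -0.10 in the second passage and at -1.11, -1.51 and -0.95 in the first. Again every level of the second passage was higher, by 0.87 ± 0.05 (adjusted p = 0.0030, limma). CWP1 (YKL096W), a mannoprotein of the cell wall, stood at 0.28, 0.07 and -0.11 against -0.65, -1.15 and -1.42. It was within 0.28 of the asynchronous culture throughout the second passage, a difference of 1.15 ± 0.08 (adjusted p = 0.0030, limma). Unlike CLN2 and MCD1, CWP1 rose from -1.21 at 70 min to 0.21 at 90 min and 0.28 at 100 min, so it was not off there.

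Of the 23 SBF targets, 5 rose and 0 fell: CWP1, CLN2, TOS6 (0.88 ± 0.11), a cell wall gene, SVS1 (0.74 ± 0.05) and CSI2 (0.42 ± 0.08). The list had a median of 0.22, with 21 members above 0 and 2 below, PCL1 (-0.25, a Pho85 cyclin) and RAX2 (-0.09). The related G1 cyclin gene CLN1 had 0.20 and was not called. Of 36 MBF targets and replication genes, 8 rose and 0 fell, with a median of 0.25 and 30 members above 0. These were MCD1, RNR1 (0.62 ± 0.07), the large subunit of ribonucleotide reductase, the single-strand binding subunits RFA1 (0.50 ± 0.08) and RFA2 (0.29 ± 0.05), the polymerase subunit POL1 (0.48 ± 0.09), CDC45 (0.31 ± 0.05) of the replicative helicase, and the checkpoint genes RAD53 (0.34 ± 0.05) and MRC1 (0.32 ± 0.05). RNR1 stood at -0.28, -0.88 and -0.51 in the second passage and at -0.87, -1.66 and -0.99 in the first. The levels overlapped, and both passages were lowest at their middle array. POL30, the sliding clamp, had 0.52 ± 0.11 and was not called (adjusted p = 0.059, limma).

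All 8 core histone genes were above 0, and 3 of them rose, HHT2 (0.62 ± 0.09), HTB2 (0.61 ± 0.11) and HHF1 (0.54 ± 0.10). Histone mRNA falls steeply after S phase, and HHT2 (YNL031C), one of the histone H3 genes, stood at 0.12, -0.34 and -0.84 at 100, 110 and 120 min, against -0.21, -1.12 and -1.58 at 40, 50 and 60 min. It declined through both passages but from a higher level and less far in the second. The median difference of the list was 0.60, 0.32 with quantile normalization and 0.33 with arrays 63 min apart, where HHT2 was not called (0.39, adjusted p = 0.053, limma). HTA1 (0.73, adjusted p = 0.057) and HTB1 (0.64, adjusted p = 0.052) were not called by limma. Histone gene pairs are near-identical in sequence, so the split between copies is uncertain.

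Genes of the mitotic wave itself had small differences of the opposite sign. In the CLB2 cluster 25 of 27 measured members had a difference below 0, with a median of -0.16 (-0.09 with arrays 63 min apart), and only CHS2 was called. CHS2 (YBR038W), the chitin synthase of the primary septum, stood at -0.01, 0.60 and 0.51 at 100, 110 and 120 min, against 0.36, 0.98 and 0.79 at 40, 50 and 60 min. It was lower in each pair, by 0.34 ± 0.05 on average (adjusted p = 0.029, limma), while the groups overlapped. With arrays 63 min apart the CHS2 difference was -0.12 and was not called (adjusted p = 0.38, limma). CLB2 (YPR119W), the main mitotic cyclin, stood at 0.29, 0.50 and 0.17 in the second passage and at 0.80, 0.83 and 0.40 in the first. Each pair was lower, by -0.51, -0.33 and -0.23, but the call was missed (adjusted p = 0.051, limma); with arrays 63 min apart CLB2 passed at -0.30 (adjusted p = 0.017). Its partner cyclin CLB1 had -0.07 ± 0.09.

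The largest difference of the cluster was that of ALK1, a haspin-related kinase gene, at -0.40 ± 0.09 (adjusted p = 0.059, limma). The transcription factor gene SWI5 had -0.27 ± 0.07, the polo kinase CDC5 -0.11 ± 0.08 and the anaphase activator CDC20 -0.13 ± 0.06; none was called. The differences of the cluster narrowed with position, with medians of -0.26, -0.20 and -0.08 for the pairs in time order. All 27 members stood above the reference in the first passage on average, and 25 of the 27 were nearer to it in the second. In the daughter cell list 21 of 22 members were nearer to the reference in the second passage, against 50% of all genes tested. The same held for 20 of 23 SBF, 31 of 36 MBF and 8 of 8 histone genes. It was not particular to these lists, with 16 of 17 iron regulon and 7 of 7 MATa-specific genes nearer. Fewer were nearer in the general stress (6 of 31) and ribosome biogenesis (4 of 35) lists. These counts were made after the values had been seen. The 50% covers genes at every distance from the reference, so it is not a matched baseline for these lists. Across all 6134 genes the slope of the second passage mean on the first was 0.76.

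**Figure D3:**
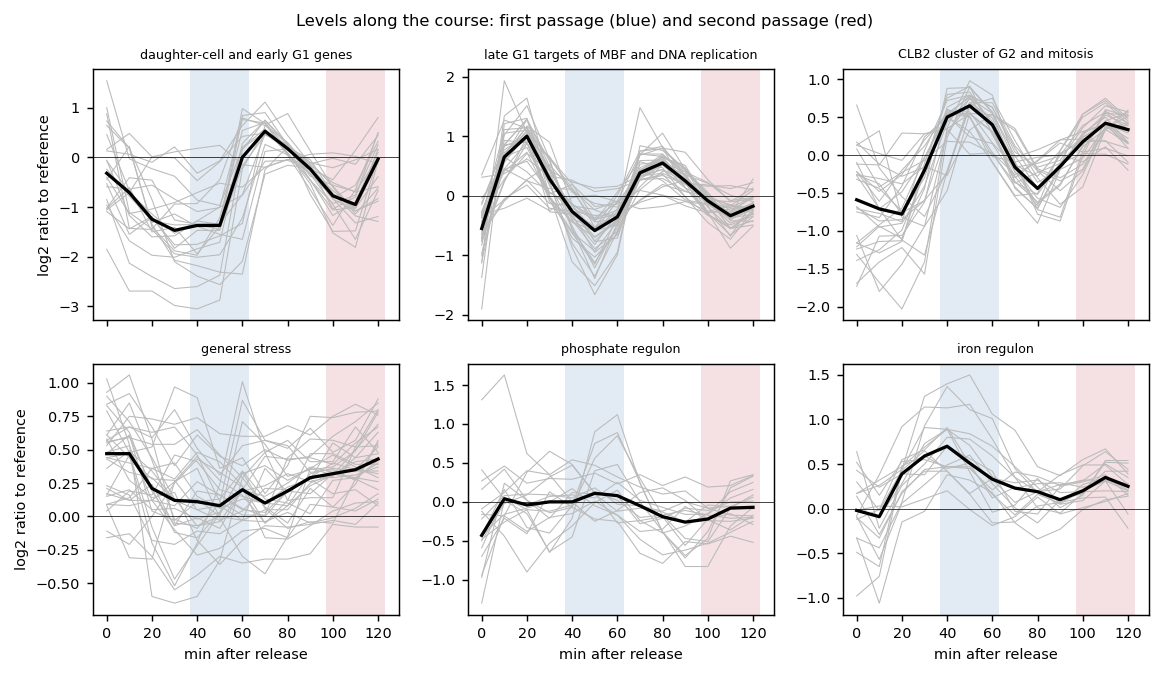
Log2 ratio to the reference along the course from 0 to 120 min for members of 6 gene lists (grey lines) and their median (black), with the first passage shaded blue and the second red. The daughter cell and MBF medians dip less in the second passage and the CLB2 cluster median peaks lower, at 0.42 on the 110 min array and 0.65 on the 50 min array, while the stress median lies higher in the second passage.

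Other parts of the mitotic machinery differed little. Of 23 genes of the anaphase-promoting complex and mitotic exit network 0 were called, with a median of 0.03; AMN1 (0.35 ± 0.09), an antagonist of mitotic exit in daughters, and PDS1 (0.35 ± 0.11), the securin, were the largest. AMN1 had -0.07 with quantile normalization and passed with arrays 63 min apart (0.46, adjusted p = 0.0056, limma), where PDS1 had 0.17. Single calls in the next lists are near the 1.52% of all genes called higher. Of 17 cytokinesis and septin genes, 1 rose: HSL1 (0.60 ± 0.08), a kinase gene of the morphogenesis checkpoint, at 0.29, -0.04 and -0.10 against -0.10, -0.80 and -0.75. Of 35 spindle and kinetochore genes, CNM67 of the spindle pole body rose (0.27 ± 0.05) and the kinesin CIN8 had 0.33 ± 0.08 (adjusted p = 0.072, limma). None of 16 S/G2 genes was called (median 0.04, -0.05 with arrays 63 min apart). Among 9 M/G1 targets of Mcm1, FAR1 (0.44 ± 0.08), the inhibitor of G1 cyclin kinase, rose, and CLN3 (-0.39 ± 0.06), the upstream G1 cyclin, fell; the FAR1 call was lost under scaling to one spread (adjusted p = 0.066) and with quantile normalization (0.16, adjusted p = 0.44).

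Of 7 MATa-specific genes, 3 rose, BAR1, AGA2 and MFA1, and 4 were not called. All 7 had a difference above 0, with a median of 0.41, or 0.20 with quantile normalization. BAR1 (YIL015W), the protease that degrades alpha factor, stood at -1.09, -0.65 and 0.55 at 100, 110 and 120 min, against -1.60, -1.70 and -0.28 at 40, 50 and 60 min. It climbed within both passages and was higher in each pair, by 0.80 ± 0.10 (adjusted p = 0.018, limma). AGA2, the binding subunit of a-agglutinin, had 0.77 ± 0.08, and MFA1, for a-factor, 0.62 ± 0.06. With quantile normalization BAR1 (0.44, adjusted p = 0.17) and MFA1 (0.31, adjusted p = 0.15) were not called. Of 24 genes of the pheromone response, 3 rose and 0 fell with a median of -0.02. Those that rose were SST2 (0.52 ± 0.07), GPA1 (0.36 ± 0.05) and PRM5 (0.37 ± 0.06). KAR4 (0.47 ± 0.12, adjusted p = 0.077) and FUS1 (0.41 ± 0.11, adjusted p = 0.087) were not called by limma, though all their second passage levels lay above the first. FIG1, which mating cells induce strongly, had -0.08. Of the 24 members, 4 lay wholly above and 4 wholly below, beside 8.7% and 12.4% of all genes.

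Some general stress genes rose as well. Of 31 general stress genes, 7 rose, beside 1.52% of all genes, and 0 fell, with a median of 0.24. Above 0 were 29, beside 2997 of 6134 genes tested. In 14 every level of the second passage was above every level of the first, beside 8.7% of all genes. TPS1 (YBR126C), the trehalose-6-phosphate synthase, stood at 0.31, 0.50 and 0.69 at 100, 110 and 120 min, against -0.16, 0.03 and 0.32 at 40, 50 and 60 min. It was higher by nearly the same amount in each pair, 0.44 ± 0.05 (adjusted p = 0.016, limma). The regulatory subunit TSL1 (0.39 ± 0.05), the trehalase NTH1 (0.29 ± 0.05), the phosphoglucomutase PGM2 (0.37 ± 0.05), the small heat shock protein HSP26 (0.34 ± 0.05) and the aldose reductase GRE3 (0.51 ± 0.05) also rose. GPD1, a glycerol-3-phosphate dehydrogenase induced by osmotic stress, rose by 0.51 ± 0.08. Its isozyme gene GPD2, outside the lists and picked after its value was seen, stood at -0.35, -0.45 and -0.44 against 0.06, 0.07 and 0.09, and fell by 0.49 ± 0.05 (adjusted p = 0.013, limma).

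NCE103 (YNL036W), which encodes carbonic anhydrase, stood at 1.38, 1.03 and 1.09 at 100, 110 and 120 min, against 0.18, -0.03 and 0.38 at 40, 50 and 60 min. The groups were well apart, with a difference of 0.99 ± 0.09, or 1.99-fold (adjusted p = 0.0087, limma). NCE103 thereby moved away from the level of the asynchronous culture, unlike the G1 genes. NFG1, the remaining gene of the 12 largest rises, had 0.71 ± 0.09. Of 12 fatty acid genes 3 rose, beside 1.52% of all genes. These were FAS2 (0.52 ± 0.06), a subunit of fatty acid synthase, ACC1 (0.47 ± 0.06), which makes its substrate, and ELO1 (0.33 ± 0.05), an elongase. The desaturase OLE1 stood at -0.68, -0.65 and -0.54 against -1.75, -1.17 and -0.57, and was not called (0.54 ± 0.17, adjusted p = 0.12, limma).

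A minority of iron uptake genes fell in the second passage. FIT1 (YDR534C), a cell wall mannoprotein that retains siderophore iron, stood at 0.27, 0.35 and 0.21 at 100, 110 and 120 min, against 1.37, 1.11 and 1.01 at 40, 50 and 60 min. The passages did not overlap, with a difference of -0.89 ± 0.08 (adjusted p = 0.0065, limma). Of 17 genes of the iron regulon 3 fell, beside 0.831% of all genes, and none rose. These were FIT1, its relative FIT3 (-0.78 ± 0.06) and the siderophore transporter SIT1 (-0.51 ± 0.07). The list had a median of -0.22 with 16 members below 0, and 8 lay wholly below their first passage levels, beside 12.4% of all genes. FET3 and FTR1, the high-affinity iron uptake pair, had -0.12 and -0.04. Without the 100 and 40 min pair the median was -0.06.

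Acid phosphatase genes fell as well. Of 17 genes in the phosphate list, which includes the thiamine-responsive PHO3, 5 fell, beside 0.831% of all genes, and 0 rose. The list had a median of -0.25 (-0.15 without the 100 and 40 min pair) and 16 members below 0. PHO11 (YAR071W) stood at -0.51, -0.08 and 0.09 at 100, 110 and 120 min, against -0.07, 0.56 and 0.85 at 40, 50 and 60 min. It climbed within both passages, which overlapped, and was lower in each pair, by -0.61 ± 0.07 on average (adjusted p = 0.015, limma). The related acid phosphatases PHO3 (-0.55 ± 0.10), PHO12 (-0.55 ± 0.07) and PHO5 (-0.49 ± 0.06) shared this course, and the split of signal between these near copies is uncertain; PHO12 and PHO5 were named after their values were seen. PHO3 was not called with arrays 63 min apart (-0.38, adjusted p = 0.059, limma). PHO89, the sodium-coupled phosphate transporter, stood at -0.08, -0.17 and -0.18 against 0.54, 0.47 and 0.32, without overlap (-0.59 ± 0.05). It fell along the course from 1.63 at 10 min, and had -0.72 for 70 to 90 against 10 to 30 min. The proton-coupled transporter PHO84 had -0.32 and was not called.

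Ribosome biogenesis genes had small and uniform shifts. Of 35 genes 2 fell, beside 0.831% of all genes. These were the GTPase NOG1 (-0.36 ± 0.05) and the RNA polymerase I subunit RPA135 (-0.29 ± 0.05). Another 31 were below 0 and not called. The list median was -0.19, and 22 of 35 genes lay wholly below their first passage levels, beside 12.4% of all genes. NOG1 stood at -0.38, -0.46 and -0.59 in the second passage and at 0.02, -0.12 and -0.26 in the first. Of 24 ribosomal protein genes 0 were called, with a median of 0.03. Of 23 ergosterol genes, HMG1 (-0.36 ± 0.06), a HMG-CoA reductase, and ERG1 (-0.31 ± 0.05), squalene epoxidase, fell, beside 0.831% of all genes. In this list 20 were below 0, beside 3137 of 6134 genes tested, with a median of -0.10.

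Among the remaining falls outside the lists, CAR2 (YLR438W), the ornithine transaminase of arginine breakdown, stood at -0.12, -0.05 and -0.10 at 100, 110 and 120 min, against 0.54, 0.72 and 0.63 at 40, 50 and 60 min. The levels within each passage were close together and the passages far apart, with a difference of -0.72 ± 0.05 (adjusted p = 0.0032, limma). ATO3, a gene of the ammonia export family, had -0.64 ± 0.06. PRM7 (YDL039C, the mean of 2 rows) and BSC1 (YDL037C) were far below the reference throughout. PRM7 stood at -2.96, -3.21 and -3.19 against -2.16, -2.43 and -2.25, with a difference of -0.84 ± 0.06, and BSC1 fell by 0.66 ± 0.09. Both fell along the course, from -1.01 and -0.97 at 0 min. For 70 to 90 against 10 to 30 min PRM7 had -0.64 and BSC1 -0.65. The open reading frames YIL080W (-0.92 ± 0.12), YNL019C (-0.83 ± 0.08), YIL082W-A (-0.76 ± 0.06) and YCL020W (-0.69 ± 0.09) completed the 12. For 70 to 90 against 10 to 30 min they had -0.62, -0.57, -0.83 and -0.39 in this order. YIL082W-A stood at 2.22, 2.18 and 2.09 against 3.10, 2.91 and 2.75, the highest value on each of the 6 arrays. It fell along the course from 3.87 at 0 min.

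**Figure D4:**
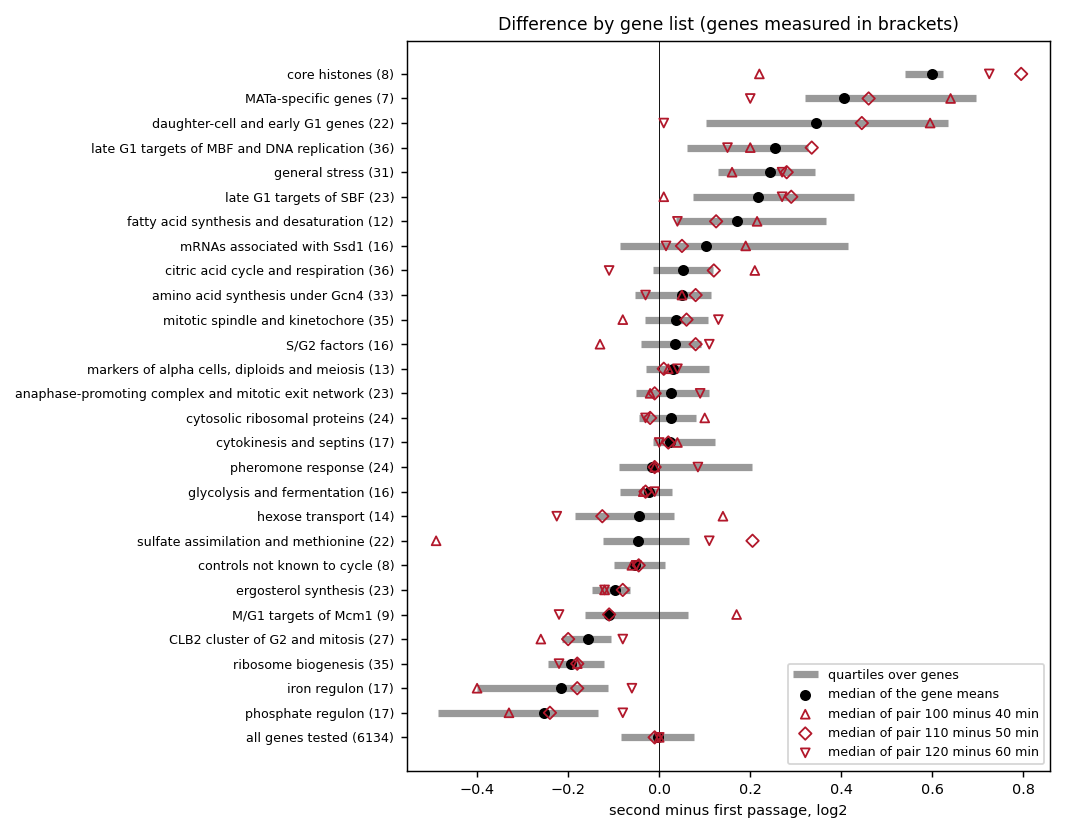
Second minus first passage, log2, for 27 gene lists and all 6134 genes tested. Black points are medians of the gene means, grey bars the quartiles over genes and open red symbols the median of each pair; the histone list lies highest at 0.60 and the phosphate list lowest at -0.25.

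The other lists held few calls. Of 33 amino acid genes under Gcn4, 1 rose, ARG4 (0.29 ± 0.05), beside 1.52% of all genes, with a median of 0.05. None was called of 36 respiratory, 14 hexose transport, 16 glycolytic or 22 methionine genes, with medians of 0.05, -0.04, -0.02 and -0.05. The methionine list differed in direction by pair, with medians of -0.49 at 100 min, 0.21 at 110 min and 0.11 at 120 min. Of 16 mRNAs associated with Ssd1, 4 rose (CTS1, DSE2, TOS6 and CLN2, all also in the G1 lists) and 0 fell, with a median of 0.10 (0.02 with quantile normalization and -0.03 without the 100 and 40 min pair). SSD1 itself stood at -0.09, -0.02 and 0.00 against -0.15, -0.10 and -0.10, a difference of 0.08 ± 0.05 (adjusted p = 0.35, limma). None of 8 control genes was called, with a median of -0.05, though ACT1 had -0.21 ± 0.06. Of 13 genes that mark alpha cells, diploids or meiosis, 0 were called; their mean level ran from 0.02 to 0.11 in the second passage and from -0.07 to 0.07 in the first. As ratios to a reference of the same mating type, these levels do not show whether a marker was expressed.

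The same contrast was made in the earlier part of the cycle, 70 to 90 min against 10 to 30 min, and its difference from the contrast of the G2 to mitosis passages was tested as an interaction. It was called for 52 of 6135 genes (0.848%), positive for 23 (0.375%) and negative for 29 (0.473%). It was positive for TOS6, whose difference was 0.88 in the G2 to mitosis passages and -0.36 in the earlier part (interaction 1.24, adjusted p = 0.043, limma), and for POL30, with 0.52 and -0.32 (0.84, adjusted p = 0.046). CHS2 had -0.34 in the G2 to mitosis passages and 1.13 in the earlier part (-1.47, adjusted p = 0.033), and HO 0.77 and 2.06 (-1.29, adjusted p = 0.030). By list, 9 of 22 daughter cell genes, 5 of 27 CLB2 cluster genes, 4 of 36 MBF and 2 of 23 SBF genes were called. The 10 to 30 min arrays directly follow the arrest. The pheromone response median was 2.16 at 0 min and 0.27 at 10 min, and AGA2 stood at 2.13 at 10 min. In the interaction, recovery from arrest and position in the cycle cannot be told apart. For FIT1, CAR2, CTS1, NCE103, PHO89 and TPS1 no interaction was called (adjusted p from 0.078 to 0.86, limma), though FIT1 had 0.04 and CAR2 -0.003 in the earlier part. The interaction count fell to 0 with the autocorrelation (230 at an unadjusted p under 0.05), to 0 with arrays scaled to one spread (756 unadjusted), and ranged from 0 to 233 without single pairs, the highest being without the 90 and 30 min pair.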

How the data were processed

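The series holds 13 two-colour arrays, 1 per time point. The authors deposited 1 log ratio per open reading frame and array, centred near 0, which was read as log2; log base, direction, scanner, background correction and normalization are not stated in the labels or the table. Signal over background is unknown. The number of arrays limits the precision. The values were used as deposited. Of 6295 rows, 5768 were named by locus tag and 49 by synonym through RefSeq's gene table (assembly R64), 458 kept their open reading frame name, and 20 unnamed rows stayed out. Rows of 27 genes were averaged.

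Passages were compared with limma 3.58.1 in R 4.3.3, with position in the cycle as a block (pairs 60 min apart), in genes with at least 2 complete pairs, Benjamini-Hochberg adjusted over all genes. This pairing comes from the time labels. The fit was tested on simulated data. Gene lists are described by counts and medians, with no set test. The 103 named genes are the 12 largest calls each way, the 3 largest one-signed members of each list, the 5 smallest interaction p each way and 10 fixed genes. Another 28 genes in the Results (CLN1, DSE1, HTB2, PHO5, GPD2 and the like) were named after their values were seen, mostly as called list members. Beyond these, the genes first named under Other observations lie outside the lists and were also picked after their values were seen. Members and lists were chosen with earlier results of these data known. Figures used matplotlib 3.10.9. Some items are not reported here.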

Additional observations from a re-analysis of the deposited data

Results flagged for a closer look

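The difference between passages was set against that of the earlier part of the cycle, and the results below are those where limma's interaction passed; each value is the second minus first cycle difference of the G2 to mitosis arrays less that of the earlier arrays, log2. The interaction was positive for 23 genes and negative for 29. Among named genes it was 1.24 for TOS6, 1.00 for YBR089W, 0.84 for POL30 and 0.84 for OPI3, of phosphatidylcholine synthesis. It was 0.68 for CDC21, thymidylate synthase, 0.63 for YGR139W and 0.62 for YKL066W. It was -2.03 for MRH1, a plasma membrane protein, -1.90 for EGT2, -1.47 for CHS2, -1.29 for HO and -1.0 for FAR1. It was -0.93 for MMR1, of mitochondrial inheritance, -0.89 for SUN4, a cell wall glucanase-related gene, and -0.70 for CDC20. An interaction can come from either part of the cycle, and the earlier part of the first cycle directly follows the arrest. MRH1 had -0.10 between the G2 to mitosis passages and 1.93 in the earlier part, SUN4 0.01 and 0.90, and YGR139W 0.05 and -0.58. TOS6, by contrast, had 0.88 and -0.36. None of the interactions passed with the estimated autocorrelation between pairs (lowest adjusted p = 0.90, limma).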

How the results depend on the processing

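Without the replicate block 0 genes were higher and 0 lower in the second passage (lowest adjusted p = 0.054, limma), as with the autocorrelation; without single pairs the counts were 0 to 0 in both directions. Interpolated first passage levels, as if arrays were 63 min apart, gave 417 and 454. Scaling to one median absolute deviation gave 176 and 157, and quantile normalization 184 and 173. Of the 144 calls, 137, 143 and 127 were kept in these settings. A robust prior, leaving out averaged genes and using complete genes gave 170, 143 and 146 calls. The interaction counts, positive and negative, were 0 and 0 scaled, 3 and 3 with quantile normalization, 0 and 0 with the autocorrelation, and 0 and 1 without the replicate block. Without single pairs they ran from 0 to 158 and from 0 to 75, highest without the 90 and 30 min pair. The count of one-signed differences of at least 0.5 ran from 36 to 65 above and from 18 to 25 below without single pairs. YIL082W-A had a difference of 0 with quantile normalization, which gives the highest gene of every array one value. No other named call changed sign. Of the 27 list medians, 0 changed sign under scaling, 2 with quantile normalization, 4 with arrays 63 min apart and up to 5 without a pair. Depth per spot is unknown and limits low-signal genes in an unmeasured way.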

Other observations

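Several groups outside the lists, picked after the values were seen and given with no test of the group, held more than 1 called gene. Transporters of thiamine and of nicotinamide riboside fell: THI7, the thiamine transporter, stood at 0.06, 0.17 and 0.08 at 100, 110 and 120 min, against 0.40, 0.50 and 0.59 at 40, 50 and 60 min, and fell by 0.39 ± 0.06 (adjusted p = 0.029, limma). Its relatives THI72 (-0.38 ± 0.05) and NRT1 (-0.28 ± 0.05) fell too, and the split of signal between similar sequences is uncertain. The acid phosphatase gene PHO3, known to respond to thiamine, also fell, by 0.55. Besides RPA135, the RNA polymerase I subunits RPA14 (-0.31 ± 0.05) and RPA34 (-0.29 ± 0.05) fell. Of the nitrogen breakdown genes, DUR12, urea amidolyase, fell by 0.58 ± 0.10 beside CAR2.

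Other genes that rose outside the lists were also picked after their values were seen. APE1, an aminopeptidase of the vacuole, stood at 0.11, 0.19 and 0.39 in the second passage and at -0.38, -0.51 and -0.10 in the first, a difference of 0.56 ± 0.06 (adjusted p = 0.013, limma). ATG19, the receptor that delivers APE1, had 0.29 ± 0.05, and PBI2, an inhibitor of a vacuolar protease, 0.54 ± 0.09. PNC1, the nicotinamidase, rose by 0.58 ± 0.08. RTT107, a scaffold of the DNA damage response, rose by 0.62 ± 0.06.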
